A study of Rattus norvegicus with 4 samples.

Results

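Untreated rat sperm held called nucleosome positions along most of chromosome 2, though 15.5% of its 1 kb bins held none. Positions with reads had a median of 1 read in each control library. The landscape described here consists of every position in the table that sets the 2 control libraries side by side for this chromosome. It holds 868880 positions, out of 3786828 rows in all 6 tables of the series, which list many places more than once. The values of the treated libraries were not used. The control rats were adult males of the randomly bred Holtzman strain, 75 days old, that received only sterile water while the other groups were given a drug for 60 days. Spermatozoa came from the caudal epididymis. The group had 6 animals, and the labels do not state how many of them went into each library. The spread between the libraries may therefore be technical. The labels say that no round cells were seen under the microscope, and DNA fragments offer no marker genes by which the cell type could be checked.

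During the last steps of sperm formation most histones are exchanged for protamines, small basic proteins that pack DNA far more tightly. A minor part of the genome keeps nucleosomes, in which DNA is wound around a core of histone proteins. Micrococcal nuclease cuts the DNA between nucleosomes and spares the stretch held by a core, so the protected fragments, here a gel band of about 150 bp, show where nucleosomes remained. A position in these data is the center of such a protected stretch, with coordinates on rat build rn6. Its occupancy is the coverage at its summit, its highest point.

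The headers do not tell which control replicate is on which side of the table, so they are told apart by depth, as the shallower and the deeper control. The value of 1 read was taken as 2 times the smallest step of coverage in each library, which gave the read number at every position. This value is inferred, since the sources used here do not state the scaling of the deposited coverage. All read numbers and counting errors given here rest on it. The shallower control held 1067555 reads at called positions of chromosome 2 and the deeper control 1170574, which is 4.01 and 4.39 reads per kb. Exact (Clopper-Pearson) 95% binomial intervals of the share of positions with reads, of those with at most 1, at least 5 and at least 10 reads, and of empty 1 kb bins in each library were at most 0.303 percentage points wide. They cover counting error only, since copies made by PCR were not marked. With 1 group and 2 libraries, no test between conditions enters, and all correlations are descriptions across windows that share the same libraries.

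Positions were dense and fairly even over most of the chromosome, with a tail of nearly empty windows. Among the 2663 windows of 100 kb that lie whole between the first and the last position, the median was 347 positions. The middle of the distribution was narrow, with quartiles of 298 and 390, while the 5th and 95th percentiles were 84 and 432.9. The highest window held 478 positions. At the other end 10 windows held no position at all, and 90 windows, or 3.38%, held fewer than 50.

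Counted by library, the median window of 100 kb held 229 positions with reads in the shallower control and 261 in the deeper control. Positions with reads in both numbered 143 in the median window. The higher figure for all positions thus joins places seen in either library. The variance of positions per 100 kb was 28.7 times the mean, so windows differed far more than a Poisson count would. Windows with long empty distances made up much of this. In the 1977 windows that touch no distance of 10 kb or more between neighbouring centers, it was 6.76 times the mean.

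**Figure D1:**
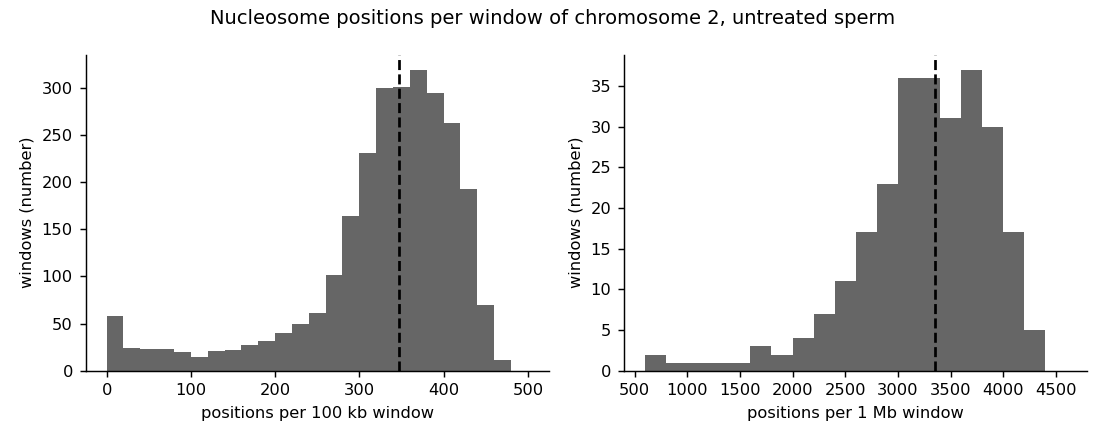
Number of windows (vertical axis) by positions per window (horizontal axis) for windows of 100 kb (left) and 1 Mb (right), with the median as a dashed line at 347 and 3353. Both distributions have a long tail toward few positions, from 0 and from 744 upward, and end at 478 and 4369.

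At the scale of 1 Mb no window was empty. The 265 whole windows had a median of 3353 positions, with quartiles of 2973 and 3735 and a range from 744 to 4369. Of these windows, 22 held at least 4000 positions, 11 fewer than 2000 and the other 232 lay between. The median window held 4078 reads in the shallower control and 4462.5 in the deeper control. The coefficient of variation of reads per 1 Mb was 19.4% in the shallower control and 19.7% in the deeper.

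The 5 densest windows of 1 Mb stood only a little above the rest. The densest was chr2:188000001-189000000, with 4369 positions, 5398 reads in the shallower control and 6000 in the deeper control. Its neighbour chr2:187000001-188000000 followed with 4286 positions and 5397 and 5752.5 reads. The others were chr2:207000001-208000000 with 4206 positions, chr2:259000001-260000000 with 4205 and chr2:225000001-226000000 with 4201. In these 5 windows the shallower library had 1.26 to 1.33 times its median window and the deeper library 1.29 to 1.34 times its own. The excess was of similar size in both libraries.

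The densest windows of 100 kb lay apart from each other. The first, chr2:261100001-261200000, held 478 positions with 752.5 reads in the shallower control and 840.5 in the deeper control. It was followed by chr2:188900001-189000000 with 468 positions, chr2:141800001-141900000 and chr2:196400001-196500000 with 467 each, and chr2:211100001-211200000 with 466. Only the second of these lies within one of the 5 densest windows of 1 Mb.

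The sparsest windows of 1 Mb were mostly neighbours. Of the 5 windows with the fewest positions, 4 lay within chr2:159000001-164000000. The window chr2:159000001-160000000 held 744 positions, with 1017.5 reads in the shallower control and 1216 in the deeper control. The window chr2:162000001-163000000 held 758 positions with 1031.5 and 1045.5 reads. The windows chr2:160000001-161000000 and chr2:163000001-164000000 held 845 and 1136 positions. The 1 sparse window elsewhere, chr2:234000001-235000000, held 1368 positions with 1611 and 1816 reads. The same 5 windows had the fewest reads in each library taken alone.

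The window between them, chr2:161000001-162000000, held 1419 positions, so that 5 windows in a row each held fewer than 2000. This stretch, chr2:159000001-164000000, averaged 980.4 positions per Mb, against 2832.8 in the 5 Mb on each side and 3261.2 over the chromosome. Reads per Mb were 1481.8 in the shallower control and 1693.1 in the deeper, against 4006.89 and 4393.55 over the chromosome. Distances of 10 kb or more between neighbouring centers covered 39.1% of the stretch, compared with 13.5% of its surroundings and 8.52% of the chromosome. Its sparseness thus appeared in both libraries and came with long empty distances.

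Reads per called position averaged higher in the stretch, though some of its windows lay within the usual range of the chromosome's windows. The shallower library had 1.51 reads per called position there and the deeper 1.73, against 1.295 and 1.42 on both sides and 1.23 and 1.35 over the chromosome. The sides include the window chr2:156000001-157000000, at 2.31 and 2.50. By window of 1 Mb the shallower control ranged from 1.28 to 1.81 and the deeper from 1.38 to 2.01. The lowest of these, 1.28 at chr2:163000001-164000000 and 1.38 at chr2:162000001-163000000, lay between the 5th and 95th percentiles of the chromosome's windows, 1.15 to 1.31 and 1.27 to 1.42. Positions with 10 or more reads made up 0.816% of those in the stretch in the shallower control and 1.04% in the deeper control, against 0.286% and 0.180% on both sides and 0.0758% and 0.0399% of all positions. The median distance between neighbours was 240 bp, not far from the 200 bp of the chromosome.

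**Figure D2:**
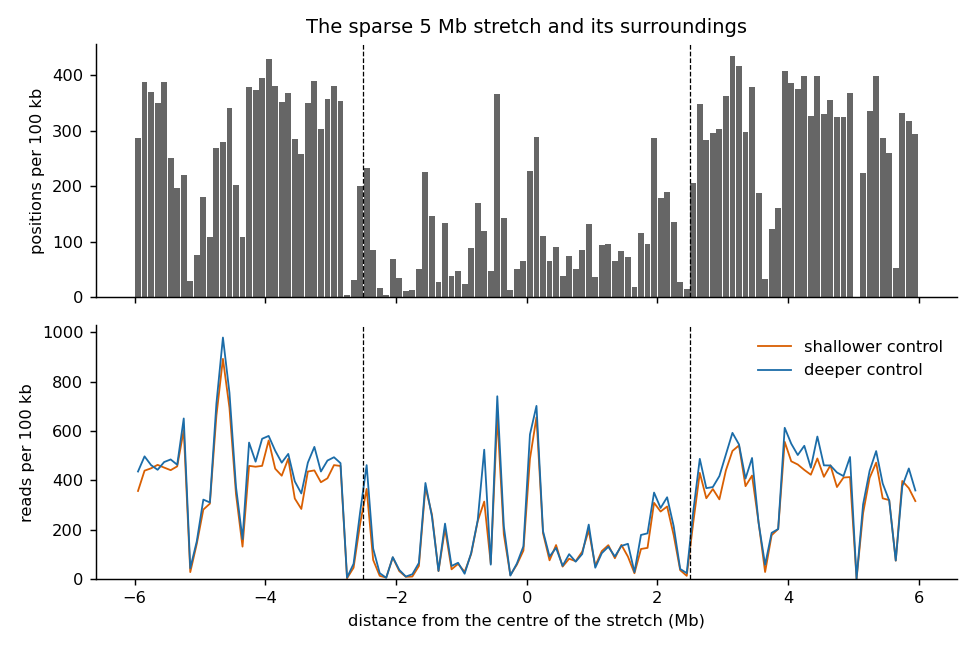
Positions (upper panel) and reads of each control library (lower panel) per 100 kb against the distance in Mb from the centre of the sparse stretch, whose limits are the dashed lines. Positions fall to 980.4 per Mb between the lines, and the peaks and troughs of the shallower (orange) and the deeper (blue) control lie mostly in the same places.

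Along the whole chromosome, by contrast, there was little gradient. By length, chromosome 2 held from 313.4 positions per 100 kb in the second of 5 equal parts to 347.4 in the last. The last part held 21.0% of the reads of the shallower control and 21.2% of those of the deeper one, and the second 18.9% and 18.8%. Neighbouring windows of 1 Mb resembled each other, with a Pearson correlation of 0.49 in positions over 264 pairs. This fell to 0.27 at a lag of 2 Mb, 0.18 at 5 Mb and -0.03 at 10 Mb. The reads of each library behaved alike, at 0.47 and 0.48 for adjacent windows and -0.01 and -0.03 at 10 Mb. Over all windows, density was thus shared over a few Mb and not over 10 Mb. The sparse stretch of 5 adjacent windows is part of these correlations, which were not computed without it. How far they hold for the rest of the chromosome was not tested.

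Neighbouring centers lay close together. The median distance was 200 bp, with quartiles of 145 and 307 bp and a 95th percentile of 627 bp. Distances from 100 to 199 bp made up 46.6% of the total, those from 200 to 399 bp 36.8%, those from 400 to 999 bp 13.1% and those of 1 kb or more 1.74%. The commonest class of 10 bp was 140 to 149 bp, with 5.26% of all neighbours. No distance was under 75 bp, and the step at 100 bp, below which only 1.81% of distances fell, is a feature of the deposited positions. For scale, the band cut from the gel was about 150 bp.

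Taken from each library by itself, or limited to stronger ones, positions lay further apart. The median distance was 280 bp between positions with reads in the shallower control and 255 bp for the deeper control. Between positions with reads in both it was 423 bp, and between positions with at least 3 reads summed over both it was 450 bp. Spacing in these data therefore followed the number of reads and positions taken, and the 200 bp of the joined table cannot be read as the repeat length of the chromatin.

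The distances between all pairs of centers, not only neighbours, showed 1 broad peak. Pairs 140 to 159 bp apart were 1.33 times as frequent as the mean of pairs 1 to 2 kb apart, and those 120 to 139 bp apart also 1.33 times. The ratio was 1.24 at 100 to 119 bp and 0.22 at 80 to 99 bp. The peak thus began at the 100 bp step of the deposited positions, and the effect of that step on its shape was not tested. From 200 to 219 bp the ratio was 1.01, and a low second rise reached 1.06 at 280 to 299 bp. Beyond 480 bp it stayed between 0.987 and 1.04. With at least 3 reads summed the peak was again at 140 to 159 bp, with a ratio of 1.34. Beyond it the ratio stayed between 1.08 and 1.10 from 240 to 339 bp, with no dip and rise larger than the scatter between neighbouring classes. No series of regular peaks was seen at this depth.

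**Figure D3:**
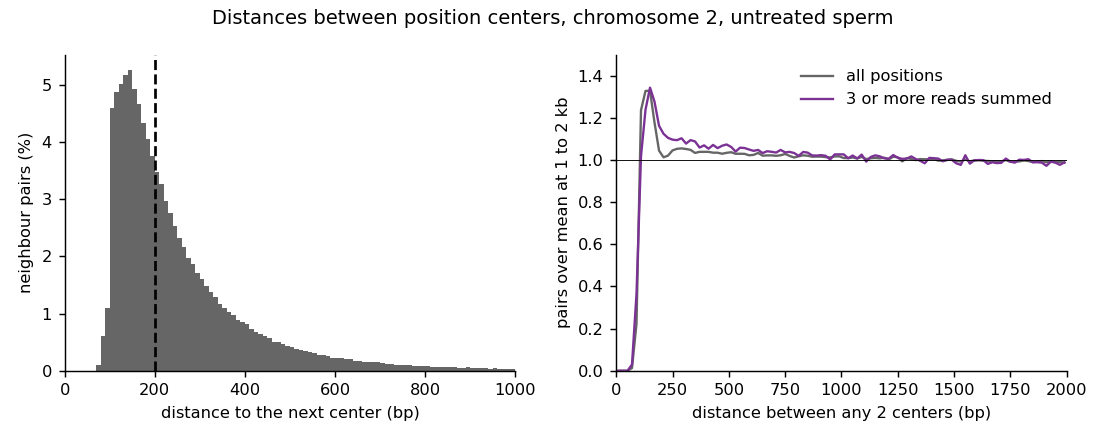
Left, percent of neighbouring centers by their distance in bp, with the median of 200 bp as a dashed line. Right, pairs of centers at each distance relative to the mean of pairs 1 to 2 kb apart, for all positions (grey) and those with at least 3 reads summed (purple); both curves peak at 140 to 159 bp and run close to 1 beyond 480 bp.

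Long distances without any position were few but took up a large part of the chromosome. There were 15102 distances of 1 kb or more, which is 1.74% of all distances, and together they spanned 56.4 Mb or 21.2% of the length from the first to the last position. Those of 10 kb or more numbered 867 and spanned 22.7 Mb, or 8.52%. Outside them the mean density was 356.5 positions per 100 kb, against 326.1 over the whole length. The 5 longest ran 227.08 kb (chr2:35909993-36137071), 211.31 kb (chr2:43858463-44069771), 176.51 kb (chr2:58777473-58953981), 161.51 kb (chr2:81042953-81204461) and 159.81 kb (chr2:129583213-129743021). Each of them enclosed 1 of the 10 windows of 100 kb without a position. The sequence of these intervals was not analysed here.

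Leaving out windows with such a long distance also takes out windows with few positions, so what follows is a description of the rest. In the 1977 windows of 100 kb that touch no distance of 10 kb or more, the median was 368 positions and the lowest 110. Their coefficient of variation was 13.6%, against 29.7% in all 2663 windows. Reads in these windows had a median of 445.5 (shallower) and 490 (deeper). Sorted by positions into 5 classes of equal number, the windows had a median of 301.0 positions in the lowest class and 426 in the highest. Since a position needs reads, both rise along the classes by the sorting. Reads went from a median of 356.25 to 536 in the shallower control and from 387 to 585.5 in the deeper one. Reads per position stayed nearly level, between 1.204 and 1.25 in the shallower control and between 1.31 and 1.37 in the deeper.

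Occupancy was low and similar in shape in both libraries. The shallower control had reads at 577274 positions, 66.4% of the total, and the deeper control at 656231, or 75.5%. At 50.3% of its positions the shallower library had at most 1 read, and the deeper library at 50.5%. More than 1 and up to 2 reads lay at 29.0% and 30.3%, and more than 2 and up to 3 at 11.6% and 11.6%. The mean was 1.85 ± 1.23 reads in the shallower control and 1.78 ± 1.11 in the deeper (SD over occupied positions, which are not replicates). The median was 1 read in both.

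The libraries parted in the upper tail, where the shallower control held more strong positions in spite of its lower depth. It had 5 or more reads at 3.73% of its occupied positions, with a binomial interval of 3.68% to 3.77%, and the deeper control at 2.58%, with 2.55% to 2.62%. These intervals treat positions as independent, which they are not, and do not test a difference between the libraries. Positions with 10 or more reads numbered 659 in the shallower control and 347 in the deeper. At 20 or more reads the numbers were level, 39 in each. The highest position held 46 reads in the shallower control and 56.5 in the deeper. The fullest 1% of positions held 5.90% of the reads of the shallower control and 4.84% of those of the deeper one. Ranked by the other library, the same number of positions held 2.17% and 1.99%.

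**Figure D4:**
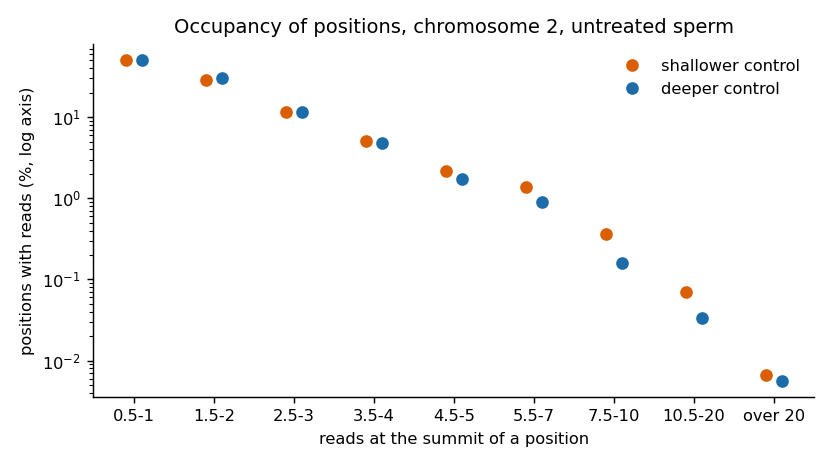
Percent of positions with reads (vertical log axis) by reads at the summit (horizontal axis) in the shallower (orange) and the deeper (blue) control. The points lie close together up to 3 reads, and in every class above 3 reads the shallower control lies higher.

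The fullest positions, ranked by reads summed over both libraries, lay in groups. The position centred at 160885662 held 38.5 reads in the shallower control and 56.5 in the deeper. The position centred at 49364062 held 46 and 42.5 reads, and that at 49293577 held 34.5 and 50.5. The positions at 49360212 and 49358267 held 40.5 and 43 reads and 34 and 40 reads. The ranking favours positions that are full in both, and not all were: the position ranked 10, centred at 197079757, held 14 reads in the shallower control (rank 115 there) and 48 in the deeper (rank 3). Of the 5 fullest, 4 lay within 70.5 kb. The 100 fullest positions formed 24 groups more than 100 kb apart.

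The libraries were compared at single positions and in windows of rising size. A total of 364707 positions, or 42.0%, had reads in both, and these held 63.2% of all reads. Another 24.5% had reads in the shallower control alone and 33.6% in the deeper control alone. A further 82 positions had no read at the summit in either. Over single positions the Pearson correlation of log2 reads, with 0.5 reads added, was -0.20 (n = 868798). That value is bound by the way positions were chosen, since a place enters the table through reads in either library.

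Fixed windows also entered only with reads in either library, a rule that left out 15.5% of the bins of 1 kb, 5.24% of the windows of 10 kb and none of 1 Mb. The selection thus differed between scales, and the correlations below cannot be told apart from it. The Pearson correlation of log2 reads was 0.39 over 225107 bins of 1 kb, 0.90 over 25249 windows of 10 kb, 0.98 over 2655 windows of 100 kb and 0.99 over 267 windows of 1 Mb. Spearman's rho was 0.41, 0.74, 0.93 and 0.98. At 10 kb the Pearson correlation was 0.67 when windows with fewer than 20 positions were left out. At 1 Mb it was 0.988 without the 5 sparsest windows, a set left out after the data were seen.

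The differences between the libraries were above counting error at each scale of windows, and 2 measures of the excess moved in opposite directions with window size. A dispersion index, the summed squared deviation from a constant share divided by its binomial variance, is 1 for pure counting. It was 1.17 for bins of 1 kb, 1.2 for windows of 10 kb, 1.32 for 100 kb and 1.90 for 1 Mb. The SD of the log2 ratio fell from 0.325 at 10 kb to 0.124 at 100 kb and 0.0459 at 1 Mb, in windows with at least 20 reads in each library. Counting alone would give 0.304, 0.110 and 0.0325. The part beyond counting was 0.115, 0.0588 and 0.0324, so it fell with window size while the dispersion index rose. For the same proportional difference, the index grows with the reads per window. At 1 Mb all 267 windows lay within 1.2-fold of the median ratio, and at 100 kb 96.9% did. When no position counted for more than 3 reads, the SD at 100 kb was below that computed from counting, a comparison limited by the smaller variance of reads bounded in this way.

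**Figure D5:**
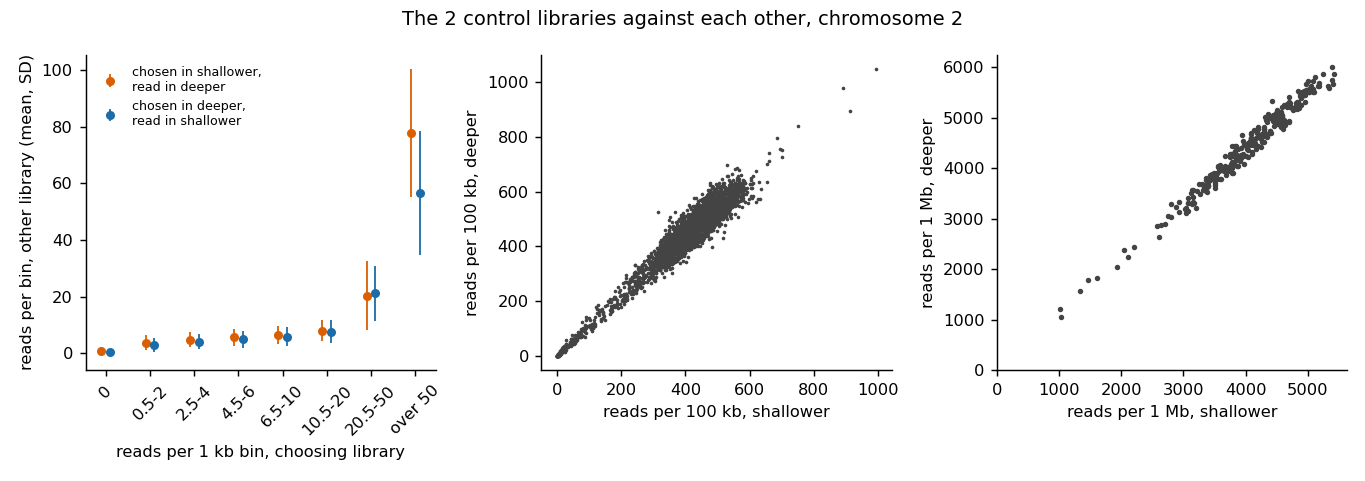
Left, mean reads (with SD over bins) in the other library for 1 kb bins sorted by their reads in the choosing library; middle and right, reads of the deeper against the shallower control in windows of 100 kb and 1 Mb, where each point is a window. The points tighten from 100 kb to 1 Mb, and bins over 50 reads in the shallower control hold 77.9 reads on average in the deeper one.

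Bins chosen by their reads in one library differed in the same order in the other. Of the 266429 bins of 1 kb, 52813 (19.8%) were empty in the shallower control and 47688 (17.9%) in the deeper one. Where the shallower control was empty, the deeper control had a mean of 0.646 reads and was itself empty in 78.2% of the bins. Bins with more than 0 and up to 2 reads in the shallower control had a mean of 3.77 ± 2.60 (SD over bins) in the deeper one. Those with more than 6 and up to 10 reads had 6.46 ± 3.07, and those with more than 20 and up to 50 reads had 20.4 ± 12.3 (326 bins). The 12 bins over 50 reads had 77.9 ± 22.6, which is 17.7 times the mean bin. In the opposite direction, 21 bins over 50 reads in the deeper control had 56.6 ± 22.0 in the shallower one. Both empty and very full places thus recurred, while moderate read numbers overlapped widely between classes.

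Among single positions with reads in the shallower control the relation was weak below the upper tail. Where the shallower control had at most 1 read, the deeper control had a mean of 1.03 reads and none at 41.7% of positions. With more than 3 and up to 4 reads in the shallower control the mean of the deeper was 1.61. At 20 or more reads (39 positions) it was 24.2 ± 13.3 (SD over positions), and none of these positions was empty. These classes leave out the 33.6% of positions with reads in the deeper control alone, which held 21.1% of all reads. Such positions enter only through the deeper control, so the means do not describe a relation over all positions.

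Summits lay closer together at the strongest positions, with no steady trend below 5 reads. Where each library had exactly 1 read, at 81149 positions, the summits lay a median of 30 bp apart, and 44.9% lay within 20 bp. With 2, 3 and 4 reads each the median was again 30 bp, with 40.4%, 43.3% and 46.8% within 20 bp. The share with a deposited distance of 0 bp fell from 21.4% at 1 read to 8.62% at 4 reads (1403 positions). With 5 to 7 reads each the median was 20 bp, with 50.6% within 20 bp. With 8 or more reads each it was 20 bp, with 66.3% within 20 bp and 23.4% at 0 bp (261 positions).

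The 5 windows of 100 kb with the lowest ratio all lay in the sparse stretch. Of these, 4 held few reads, which widens their counting intervals. The cause of the low ratios was not tested. Of 2577 windows with at least 50 reads in each library, 91.3% lay within 0.2 of the median log2 ratio, and 9 lay more than 0.4 away. The lowest was chr2:160800001-160900000, with 313.5 reads in the shallower control and 524 in the deeper and a log2 ratio of -0.61 (95% counting interval -0.81 to -0.41). This window holds the fullest position of the chromosome. The other 4 held 76.5 to 125.5 reads in the shallower control and 122.5 to 184.5 in the deeper, against medians of 420.5 and 461 over all windows. They were chr2:159100001-159200000 at -0.55 (-0.96 to -0.14), chr2:163000001-163100000 at -0.53 (-0.91 to -0.15), chr2:163200001-163300000 at -0.43 (-0.76 to -0.09) and chr2:163300001-163400000 at -0.43 (-0.75 to -0.10). The stretch as a whole was only 0.06 lower in log2 ratio than the chromosome.

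The windows at the opposite end were scattered. The highest, chr2:208500001-208600000, was at 0.45 with 87.5 reads in the shallower control and 70 in the deeper, and its counting interval of -0.0031 to 0.90 included 0. Next came chr2:135600001-135700000 at 0.42, with 483.5 and 396 reads and an interval of 0.23 to 0.61. The windows chr2:239700001-239800000, chr2:37200001-37300000 and chr2:67400001-67500000 were at 0.40, 0.38 and 0.37. These intervals treat reads as independent and were not adjusted for the choice of the most extreme windows.

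In the authors' deposited table the FDR of the occupancy difference between these 2 untreated libraries was at most 0.05 at 136443 of 868880 positions, a background of 15.7% called. Higher values in the shallower control accounted for 10.7% and lower values for 5.01%. Of the called positions in the authors' deposited table, 93.7% (127903) had no read in one of the libraries. Among all positions, 24.5% (212567) had reads in the shallower control alone and 33.6% (291524) in the deeper control alone. Where both had reads, 2.34% were called, and where both had 5 or more reads 2.11% (45 of 2134). Calls of this table thus lay mostly at positions with reads in a single control, though most positions of that kind were not called.

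On the X chromosome of the same libraries positions were sparser. The X table of the controls held 341280 positions, or 213.3 per 100 kb, 0.654 times the density of chromosome 2. Counting only positions with at least 3 reads summed, the ratio was 0.362. Reads per 100 kb were 195.2 in the shallower control and 210.8 in the deeper, which is 0.487 and 0.480 times the value of chromosome 2. Each spermatozoon carries a chromosome 2, whereas only those that are not Y-bearing carry an X. The median distance between neighbours on X was 270 bp, against 200 bp. The correlations between the libraries were lower on X than on chromosome 2, at 0.16, 0.81, 0.96 and 0.97 at 1 kb, 10 kb, 100 kb and 1 Mb, on fewer reads per window. The dispersion index on X was 1.17, 1.23, 1.35 and 1.62 at these scales. It was level with chromosome 2 at 1 kb, above it at 10 kb and 100 kb, and below its 1.90 at 1 Mb. Since the index grows with the reads per window, it does not rank the chromosomes. The SD beyond counting on X was 0.0899 at 100 kb and 0.0392 at 1 Mb, above the 0.0588 and 0.0324 of chromosome 2. At 10 kb the SD on X did not exceed that computed from counting, and the part beyond it was set to 0. On chromosome 2 this part was 0.115. Only 6878 of 14869 windows with reads on X had the required 20 reads in each library, against 22506 of 25249 on chromosome 2. The 2 values at 10 kb therefore rest on unlike selections of windows and cannot be compared, and the dispersion index on X was above 1 there. No test of the difference between chromosomes was made, since both come from the same libraries.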

How the data were processed

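Caudal spermatozoa were digested with 4 units of micrococcal nuclease for 2 minutes at 37 °C, and sequencing libraries took 10 ng of the gel band through 5 PCR rounds, per the labels' protocols. The submitters' processing notes name Bowtie2, SAMtools 1.4 and build rn6. Which program called the positions the sources used here do not say. The deposited summit occupancy is coverage (a signal), on a scale set before deposit. The log2 ratio of occupancy, its FDR (an adjusted p-value) and the distance between summits are values of the authors' deposited table.

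Signal was divided by the value of 1 read (8.44 units in the shallower, 7.60 in the deeper control on chromosome 2), taken as 2 times the smallest step of each column. All values were then whole multiples of 0.5 reads within 1e-09 reads. A read that covers neighbouring summits may count at each. Windows start at base 1. Values were computed with Python 3.11.15, numpy 2.4.6, pandas 2.3.3 and scipy 1.17.1, and the functions were tested on simulated data. No condition was compared, and no gene or sequence was assigned, because the gene tables at hand use another build than rn6.

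Windows were named by rank: the 5 highest and 5 lowest by positions, or by ratio with at least 50 reads in each library, the 5 longest distances and the 5 fullest positions. Lists and measures were chosen with earlier results of these data known. Among alternatives, each library was taken alone, and other windows, read limits and pseudocounts were tried. Another 4 tables, which hold treated libraries, were used only for their number of rows. Of the columns with values of a single library, 6 in each table of the controls were not used.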

Additional observations from a re-analysis of the deposited data

How the results depend on the processing

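Densities and distances depended on which positions were taken. The median per 100 kb was 347, against 229 to 261 with each library alone, 143 with reads in both and 133 with at least 3 reads. The median per 1 Mb was 3353, against 2202 to 2515, 1388 and 1287. The median spacing was 200 bp, against 255 to 280 bp with each library alone, 423 bp with reads in both and 450 bp with at least 3 reads. Windows of 50 kb and 500 kb, scaled, moved neither density by more than the spread between the libraries. The share of reads in the fullest 1% of positions was 2.17% (shallower) and 1.99% (deeper) when the other library ranked them.

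The correlation at 1 kb was 0.382 with at most 3 reads per position, 0.407 with a pseudocount of 1 and 0.668 at positions with reads in both. At 10 kb these were 0.908, 0.906 and 0.920, with 0.669 for windows of at least 20 positions. At 100 kb they were 0.986, 0.987 and 0.990, with 0.979. At 1 Mb the limit of 3 reads gave 0.994, and leaving out the 5 windows with the fewest positions 0.988. The SD beyond counting at 100 kb was 0 both with at most 3 reads and with reads in both, since the SD lay below that computed from counting. At 1 Mb it was 0.0203 and 0.0148. The authors' calls made up 23.4% of positions with at least 3 reads and 2.34% of those with reads in both. The coefficient of variation per 1 Mb was 19.9% with at most 3 reads. With at least 3 reads summed, X had 0.362 times the positions of chromosome 2 per 100 kb. The causes were not tested beyond the smaller number of positions or reads that each choice leaves.

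No paired analysis was possible because there is 1 group and the columns carry no replicate number. The planned description of gene starts and base composition was not run, nor were the point value and the summits of a single library, whose columns were not used. Leaving out windows with a distance of 10 kb or more, and the 5 sparsest windows, was chosen after seeing the data. Depth limits single positions: at a median of 1 read, presence in a single library and absence in the other cannot be told from counting.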

Other observations

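Reads per called position varied little over the chromosome except in a few windows, which were picked out after their values were seen. Over the 265 windows of 1 Mb the shallower control had a median of 1.22 reads per position (5th to 95th percentile 1.15 to 1.31) and the deeper control 1.34 (1.27 to 1.42). The window chr2:156000001-157000000 stood at 2.31 and 2.50. It held only 1948 positions, among the 11 windows with fewer than 2000, and yet 4505.5 reads (shallower) and 4871 (deeper), close to the median window of 4078 and 4462.5. Its median spacing was 190 bp and its longest empty distance 44355 bp. Positions with 5 or more reads made up 13.2% there in the shallower control and 14.9% in the deeper, against 2.48% and 1.95% of all positions, and 60.1% of its positions had reads in both libraries, against 42.0%. The next windows were chr2:194000001-195000000 at 1.87 and 1.96, chr2:161000001-162000000 at 1.81 and 2.01, chr2:160000001-161000000 at 1.58 and 1.86 and chr2:1000001-2000000 at 1.56 and 1.64. Reads per position had a Pearson correlation of 0.92 between the libraries over the 265 windows, and 0.68 without these 5 windows. Spearman's rho was 0.61 and 0.59. The reads of both libraries were divided by the same number of positions, which can by itself raise these correlations. They are therefore not a measure of independent agreement. What sets these windows apart was not tested.

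The log2 ratio of the libraries was itself shared between nearby windows of 1 Mb, with a Pearson correlation of 0.17 for adjacent windows, 0.24 at a lag of 2 Mb, 0.16 at 3 Mb and -0.06 at 10 Mb. These windows share the same libraries, and no test was made.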
